A study of Mus musculus with 11 samples.

Results

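A set of 10 antigen presentation genes was followed in mouse livers in which active YAP was switched on for 3 or 7 days: the class I genes H2-K1, H2-D1 and B2m, the class I processing genes Tap1 and Psmb8, the class II genes H2-Aa, H2-Ab1, H2-Eb1 and Cd74, and their regulator Ciita. They were taken by symbol from the expression table, and all 10 of 10 were among its 20893 rows. All 10 also passed the filter on low values (at least 0.5 eRPKM in at least 3 livers), which left 14244 genes for testing. The values are eRPKM, which divide a gene's exonic reads by its length and by the size of the library. The lengths behind the values differed from the exonic lengths in the GENCODE M1 gene annotation for some genes. They were longer for B2m (2414 against 860 bases) and shorter for Psmb8 (1223 against 2736). Levels of different genes can be set side by side only within that limit.

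RNA was taken from whole homogenised livers of C57BL/6 mice carrying the ROSA26-rtTA-IRES-EGFP allele, and 11 livers were sequenced. The 4 control livers (genotype ROSA26-rtTA-IRES-EGFP; WT) had no YAP transgene and had been fed doxycycline food for 7 days. The induced livers (genotype ROSA26-rtTA-IRES-EGFP; tetYAP) came from 4 mice fed doxycycline for 3 days and 3 mice fed it for 7 days, so the 3-day livers differ from the controls in days of doxycycline as well as in YAP. In this model the transactivator rtTA, which doxycycline activates, is released by Alb-CRE, a recombinase driven by the albumin promoter and so active in hepatocytes, and it drives YAP with the S127A mutation, which escapes inhibition by Hippo kinases. The age of the mice is not given in the sources used here.

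Class I molecules display peptides made inside the cell to CD8 T cells, and nearly all nucleated cells carry them. Their peptides are cut by the proteasome, in which Psmb8 replaces a constitutive subunit under interferon, and are pumped into the endoplasmic reticulum by the Tap1/Tap2 transporter. Class II molecules display engulfed material to CD4 T cells and are made mainly by B cells, dendritic cells and some macrophages, under the control of Ciita. In the liver, Kupffer cells, dendritic cells and endothelial cells are the usual carriers of class II, while hepatocytes normally carry class I only.

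The libraries held between 1251396 and 5495697 reads on genes in the controls, between 2660233 and 3681416 at 3 days and between 5312486 and 5941357 at 7 days. Hepatocyte markers were abundant in every library, with a summed eRPKM of Alb, Apoa1, Ttr, Trf and Cps1 between 1091 and 3382 in controls and between 932 and 1049.7 at 7 days. Ctgf and Cyr61, which YAP is known to induce, rose in all 7-day livers (log2 fold changes 3.49 and 3.27, adjusted p = 1.25e-05 and 8.01e-06, limma). Yap1 itself stayed between 13.9 and 21.1 eRPKM in all livers, and whether the mouse gene's count contains reads of the transgene is not given in the sources used here. The female-specific RNA Xist lay between 78.5 and 133 eRPKM in 7 of 11 livers, among them all 3 of the 7-day group, 2 controls and 2 livers at 3 days, and between 0.153 and 3.12 in the others. Control livers 1 and 2 and 7-day liver 2 had reads on 332, 406 and 716 of 1114 olfactory receptor genes, which liver does not normally express, against 26 to 134 in the other libraries.

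In control livers the class I genes were the most abundant of the 10, with H2-K1 at 223 ± 88.2 eRPKM (SD, n = 4), H2-D1 at 155 ± 49.4 and B2m at 135 ± 60.8. In each of the 4 control livers the order was H2-K1, H2-D1, B2m, although the ranges over livers overlapped. This order depends on the lengths behind the values, which for B2m was 2414 bases against 860 in GENCODE M1. Cd74 followed at 55.8 ± 8.75, Psmb8 at 36.0 ± 6.42, H2-Aa at 22.3 ± 3.24 and H2-Ab1 at 21.0 ± 7.55, and the last 2 of these were within each other's spread. H2-Eb1 at 11.2 ± 4.41 and Tap1 at 8.63 ± 1.72 also overlapped. Ciita was lowest, at 1.498 ± 0.289 eRPKM, which rested on 11 to 68 reads per control library.

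**Figure D1:**
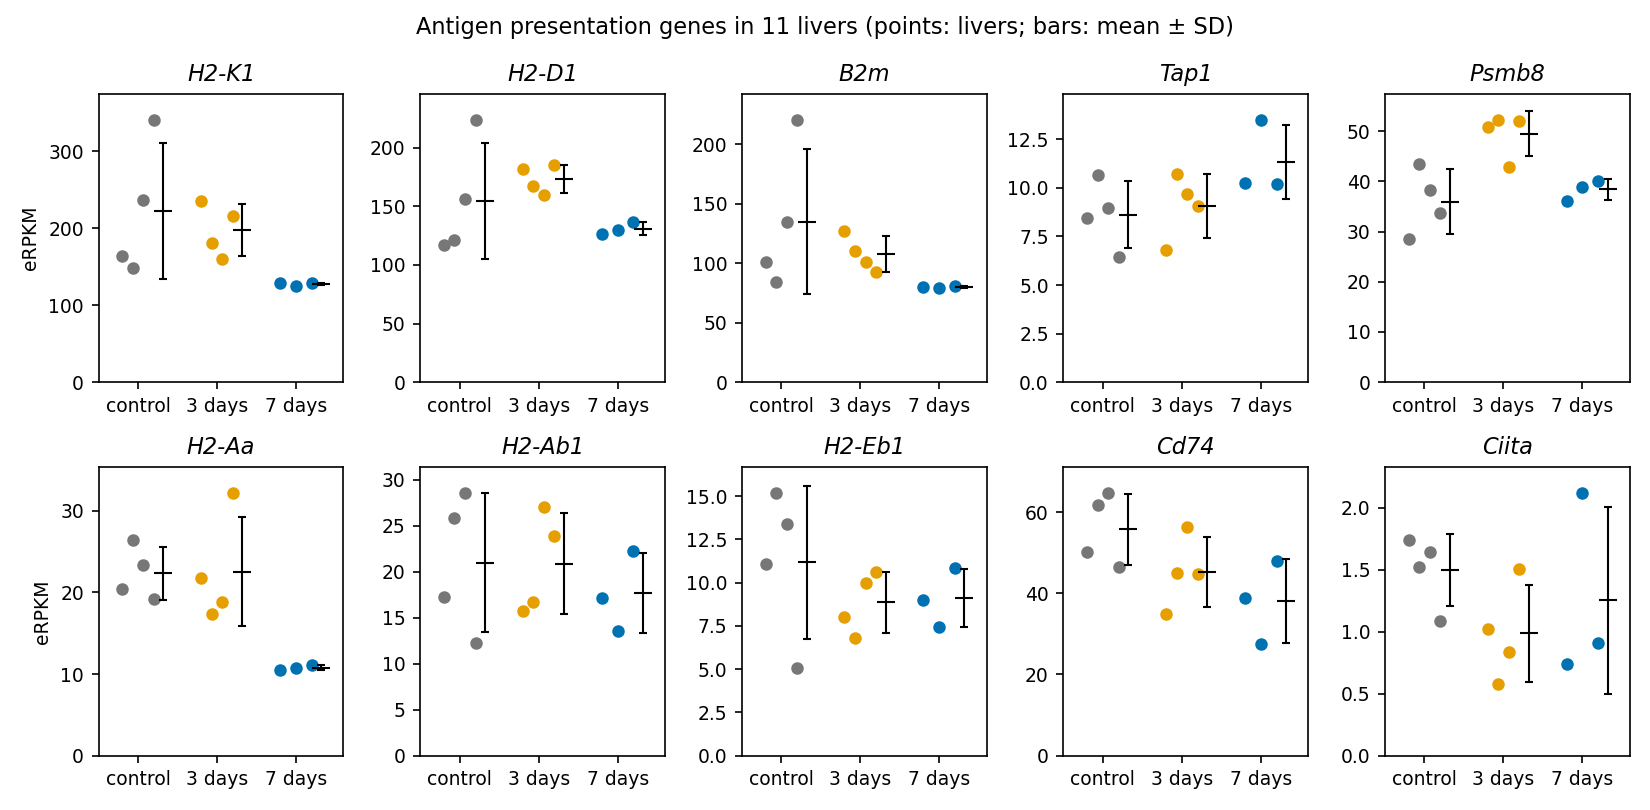
Level of each of the 10 genes in eRPKM (vertical axis, from 0) in control, 3-day and 7-day livers; each point is 1 liver and the bar beside it the mean ± SD. The 3 livers at 7 days lie below all other livers for H2-Aa (10.5 to 11.1 eRPKM), H2-K1 and B2m, while the control livers of the class I genes are widely spread.

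The question asked of these genes was whether liver antigen presentation moved with YAP, early at 3 days or later at 7 days. At 3 days none of the 10 was called, where a call meant an adjusted p under 0.01 over all tested genes and a log2 fold change beyond 0.5 (limma on log2 of eRPKM + 0.5). At 3 days only 6 genes of 14244 were called, all higher (0.0421%). At an unadjusted p under 0.05 limma counted 1718 genes, of the 10 Psmb8 alone, and limma-voom on the recovered reads also called none of the 10. At 7 days the same rule called 1 of the 10, H2-Aa, which fell, where 5.77% of all genes were called lower and 18.0% higher. H2-Aa was again the 1 member called at 7 days against 3 days, lower, where 5.31% of all genes were called lower and 14.0% higher. The median log2 fold change of the 10 was -0.06 at 3 days, -0.23 at 7 days and -0.31 at 7 against 3 days, beside 0.02, 0.26 and 0.26 over all tested genes. Median-ratio size factors moved the median of all genes at 7 days against control to 0.02 and the calls from 2561 higher and 822 lower to 1950 and 1255, and quantile normalization to -0.08, with 1857 and 1821. H2-Aa stayed lower under both, at -1.27 and -1.502.

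**Figure D2:**
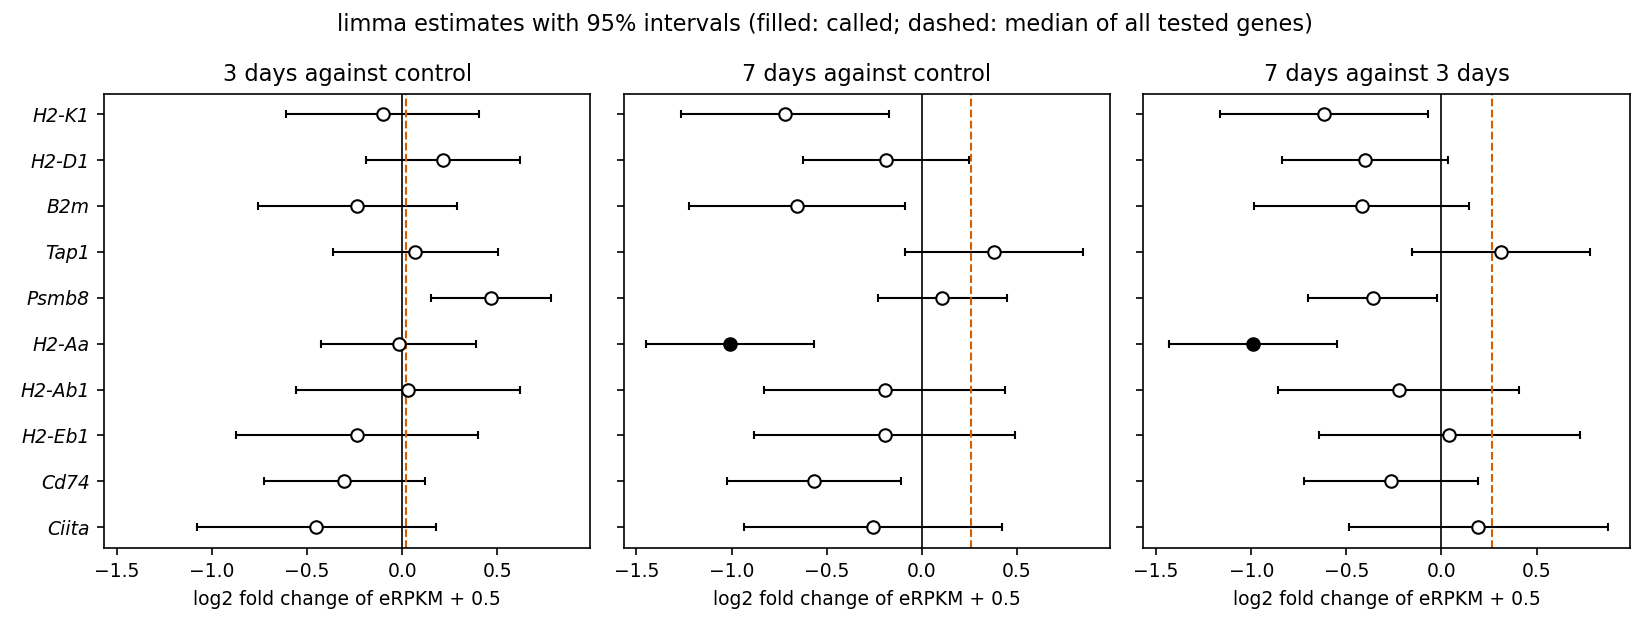
Log2 fold change of eRPKM + 0.5 with its 95% interval (horizontal axis) for the 10 genes in the 3 comparisons; a filled point marks a call and the dashed line the median of all tested genes. H2-Aa is the only filled point, at -1.01 against control and -0.99 against 3 days, and at 3 days the intervals of all genes but Psmb8 cross 0.

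H2-Aa encodes the alpha chain of the I-A class II molecule. Its level was 20.4, 26.4, 23.3 and 19.2 eRPKM in the control livers, 21.8, 17.4, 18.8 and 32.1 at 3 days, and 10.5, 10.8 and 11.1 at 7 days. All 7-day livers lay below every other liver, and their SD was 0.284 eRPKM. H2-Aa fell to 0.482 times its control mean at 7 days (log2 fold change -1.01 ± 0.20, SE, 95% interval -1.45 to -0.57, adjusted p = 0.00198, limma), whereas the 3-day estimate was -0.02 with an interval of -0.43 to 0.39. The exact two-sided permutation test gave p = 0.029, the smallest that 4 against 3 livers allow. Among livers with high Xist alone, the 2 controls were at 23.3 and 26.4 eRPKM against 10.5 to 11.1 at 7 days, and with Xist as a covariate the log2 fold change was -1.13 (adjusted p = 0.00115). Control liver 2, as deep as the 7-day libraries, held 461 H2-Aa reads against 178 to 203. The call was lost without 7-day liver 1 (-0.99, adjusted p = 0.0104), without the 3 libraries rich in olfactory receptor reads (-0.94, adjusted p = 0.0460) and without control livers 3 and 4 (-1.07, adjusted p = 0.0116). Against 3 days the log2 fold change was -0.99 (adjusted p = 0.00287), and that call was lost without any 1 of the 7-day livers (adjusted p = 0.0132 to 0.0143).

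H2-Ab1, which encodes the beta chain that pairs with H2-Aa, was not called. It ranged from 12.3 to 28.6 eRPKM in control livers, from 15.8 to 27.0 at 3 days and from 13.6 to 22.2 at 7 days, and the groups overlapped throughout. The 7-day estimate on the log2 scale was -0.19 (95% interval -0.83 to 0.44, adjusted p = 0.629, limma). Among livers with high Xist alone, H2-Ab1 did not overlap, with the 2 controls at 25.9 and 28.6 eRPKM against 13.6 to 22.2 at 7 days. With Xist as a covariate its log2 fold change was -0.47 (adjusted p = 0.140, limma). The ratio of H2-Aa to H2-Ab1 lay between 0.817 and 1.56 in controls, between 0.695 and 1.38 at 3 days and between 0.497 and 0.792 at 7 days. The 2 genes lie tail to tail on chromosome 17 (mm9, H2-Ab1 34400154 to 34406363 on the plus strand, H2-Aa 34406276 to 34424772 on the minus strand) and share 17 exonic bases in the GENCODE M1 annotation, so reads there cannot be told apart in counts made without strand.

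H2-Eb1, the beta chain of the I-E molecule, also overlapped between all groups. It lay between 5.06 and 15.2 eRPKM in controls, between 6.82 and 10.6 at 3 days and between 7.45 and 10.8 at 7 days. Its 7-day log2 fold change against control was -0.20 (95% interval -0.88 to 0.49). In the livers with high Xist, H2-Eb1 was at 13.4 and 15.2 eRPKM in the 2 controls against 7.45 to 10.8 at 7 days. With Xist as a covariate its log2 fold change was -0.42 (adjusted p = 0.310, limma). The partner chain of the I-E molecule was not a member of the set and is not described here.

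Cd74, the invariant chain that guides class II molecules through the cell, was the most abundant class II gene. It measured 50.1, 61.7, 64.7 and 46.6 eRPKM in controls, 34.99, 44.98, 56.3 and 44.9 at 3 days and 38.8, 27.4 and 48.0 at 7 days. Of the 7-day livers 2 lay below all controls and liver 3 lay among them. All 3 lay below the 2 controls with high Xist, which were at 61.7 and 64.7 eRPKM. The log2 fold change was -0.57 ± 0.21 (SE) at 7 days (adjusted p = 0.0502, limma; exact permutation p = 0.0857), short of the threshold, and -0.30 at 3 days (adjusted p = 0.562). With median-ratio size factors in place of the deposited scaling, Cd74 was called at 7 days (-0.83, adjusted p = 0.00884), and without 7-day liver 2 its log2 fold change was -0.35. With Xist as a covariate it was -0.70 (adjusted p = 0.0231, limma).

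Ciita, the master regulator of class II genes, was near the floor of the data. It measured between 1.09 and 1.74 eRPKM in controls, between 0.578 and 1.51 at 3 days, and 0.737, 2.12 and 0.913 at 7 days. The highest value, 2.12 with 102 reads, came from 7-day liver 2, the library with reads on 716 olfactory receptor genes and a mean of 0.243 eRPKM over them. The log2 fold change was -0.45 at 3 days (95% interval -1.08 to 0.18) and -0.26 at 7 days (-0.94 to 0.42), and without 7-day liver 2 the 7-day difference against 3 days turned from 0.19 to -0.14. The part of that library's reads in these values was not tested.

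The 180 bases upstream of the RefSeq starts are shown here for H2-Aa and H2-Eb1, of which the first fell and the other was not called, and for H2-DMb1, a class II loading gene that rose, because class II genes are known to share a conserved upstream module read by the RFX, CREB and NF-Y factors that recruit Ciita. Capitals mark TGATTGG (the inverted CCAAT box bound by NF-Y), TGACG (the core of a CREB site) and AACTGATGA (part of the X box bound by RFX), on either strand:
H2-Aa: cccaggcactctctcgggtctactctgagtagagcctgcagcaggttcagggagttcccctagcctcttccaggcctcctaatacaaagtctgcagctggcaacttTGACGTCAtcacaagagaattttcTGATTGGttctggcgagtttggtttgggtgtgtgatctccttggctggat
H2-Eb1: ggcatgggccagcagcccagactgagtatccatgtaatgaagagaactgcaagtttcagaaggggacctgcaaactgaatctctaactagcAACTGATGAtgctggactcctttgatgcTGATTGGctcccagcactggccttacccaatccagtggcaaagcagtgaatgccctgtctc
H2-DMb1: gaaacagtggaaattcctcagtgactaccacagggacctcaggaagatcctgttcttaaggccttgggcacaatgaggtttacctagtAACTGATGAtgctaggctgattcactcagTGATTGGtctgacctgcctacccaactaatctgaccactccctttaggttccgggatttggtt

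The sequences are credited to RefSeq (GRCm38.p6), and each matched 1 place in mm9: chr17:34424769-34424948 on the minus strand for H2-Aa, chr17:34442632-34442811 on the plus strand for H2-Eb1 and chr17:34289956-34290135 on the plus strand for H2-DMb1. TGATTGG began 50, 61 and 63 bases upstream of the start in H2-Aa, H2-Eb1 and H2-DMb1. H2-Aa held TGACG 74 bases upstream, overlapped by the same letters on the other strand, and AACTGATGA began 89 and 92 bases upstream in H2-Eb1 and H2-DMb1. Over 27025 RefSeq promoters cut to the same 180 bases, 6.71% held TGATTGG, 15.001% TGACG and 0.152% AACTGATGA, and 6 held both TGATTGG and AACTGATGA. H2-DMa and Ifi30, which also rose, held none of these letters in the 180 bases upstream of the start used. Of several listed starts, the most downstream was used for the 10 members and the most upstream for H2-DMb1, H2-DMa and Ifi30. Presence or absence of letters therefore holds for the start used only. H2-Eb1 and H2-DMb1 both held TGATTGG and AACTGATGA, and their 7-day log2 fold changes were -0.20 and 1.63. A link between these letters and the changes was not tested. Of the 10 members, 7 were in the promoter table; H2-Ab1, Cd74 and Ciita were not.

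Several genes that load class II molecules rose. Of 12 listed class II molecules, loading factors and lysosomal proteases, 11 were tested; at 7 days 5 rose, none was called lower and 6 were not called, beside 18.0% of all genes called higher, with a median log2 fold change of 0.81 beside 0.26 over all genes. H2-DMa, a chain of the exchange factor that loads peptide onto class II, was at 2.13, 4.09, 4.92 and 3.78 eRPKM in controls and at 14.4, 14.7 and 19.6 at 7 days (log2 fold change 2.02, adjusted p = 0.00178, limma). H2-DMb1, its partner, rose from 2.96 ± 1.43 (SD, n = 4) to 9.57 ± 2.35 (n = 3). The lowest libraries held 7 reads of H2-DMa (3-day liver 2) and 2 of H2-DMb1 (control liver 4). In controls the 2 genes averaged 12.2 and 10.8 reads per kilobase. Tested genes at 10 to 30 reads per kilobase, with at least 10 reads in control liver 4, had a median 7-day log2 fold change of 0.54. The control reads that set this class also enter that change. Ifi30, a lysosomal reductase that unfolds antigens, rose most, from 19.8 ± 6.65 to 105 ± 9.12 eRPKM (log2 fold change 2.43). The proteases Lgmn and Ctss, the latter known to trim the invariant chain, rose by 1.57 and 1.47 on the log2 scale. The same 5 genes rose at 7 against 3 days, and none of the 11 was called at 3 days. Of 26 alternatives the call was lost in 3 for H2-DMa and in 6 for H2-DMb1.

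Macrophage and monocyte markers rose in the same 7-day livers; their part in the class II values was not tested. Over all tested genes 18.0% were called higher and 5.77% lower at 7 days. Ptprc, carried by all leukocytes, was at 6.22, 9.63, 8.62 and 4.65 eRPKM in controls and at 25.2, 29.4 and 31.9 at 7 days (log2 fold change 1.96, adjusted p = 0.000119, limma). Of 8 macrophage and Kupffer cell markers 6 rose at 7 days (Cd68, Csf1r, Vsig4, Timd4, Marco and Cd5l), with a summed level of 241 to 493 eRPKM in control livers against 935 to 1013 after 7 days. Of 5 monocyte markers 4 rose (Ccr2, Cx3cr1, Itgam and Cd14), and their sum went from 8.03 to 13.1 up to 72.2 to 87.8 eRPKM. None of 5 tested dendritic cell markers and none of 4 B cell markers was called; the sum of all 7 dendritic cell markers was 6.96 to 15.9 eRPKM in controls and 13.6 to 26.9 at 7 days, with Flt3, Cd209a and Ccr7 at 0 in some livers, and that of B cell markers was 3.75 to 8.60 and 4.64 to 12.4, with Cd79a and Cd79b at 0 in some. Of 6 T cell markers 1, Cd4, rose at 7 days, and the T cell sum stayed between 2.31 and 9.96 eRPKM in all livers, with 4 of the 6 genes at 0 in some; neither of the 2 NK cell markers was called. Of the liver's other cells, Lyve1 of 5 endothelial markers and Krt7 of 4 cholangiocyte markers rose at 7 days, Ttr of 5 hepatocyte markers fell, and none of 3 stellate cell markers was called. Single calls in lists this short, Cd4 included, cannot be set apart from the shares over all genes. In bulk samples, fewer cells of a type and less RNA per cell cannot be told apart.

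Per unit of Ptprc, the class II chains were low at 7 days in every liver. From control to 7 days mean Ptprc itself rose from 7.28 to 28.8 eRPKM and mean Cd68 from 17.6 to 105. A ratio to either is therefore lower for any gene that rose less, and is not separate evidence of a fall. H2-Aa per Ptprc was 2.71 to 4.13 in control livers, 2.40 to 3.33 in 3-day livers and 0.346 to 0.416 in 7-day livers. For H2-Ab1 the ratio was 2.64 to 3.31 in controls and 0.463 to 0.697 at 7 days, for H2-Eb1 1.09 to 1.78 and 0.254 to 0.358, and for Cd74 6.40 to 10.03 and 0.934 to 1.54. H2-DMa per Ptprc overlapped between these groups, at 0.342 to 0.814 and 0.501 to 0.615, and so did H2-DMb1, at 0.249 to 0.524 and 0.274 to 0.385. Per unit of the macrophage marker Cd68, H2-DMb1 was lower in every 7-day liver (0.0844 to 0.101) than in the controls (0.108 to 0.205), and H2-DMa overlapped (0.144 to 0.162 against 0.159 to 0.351). H2-Aa per Cd68 was 1.06 to 1.78 in controls and 0.0913 to 0.114 at 7 days. These ratios were formed after the values were seen and carry no test.

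**Figure D3:**
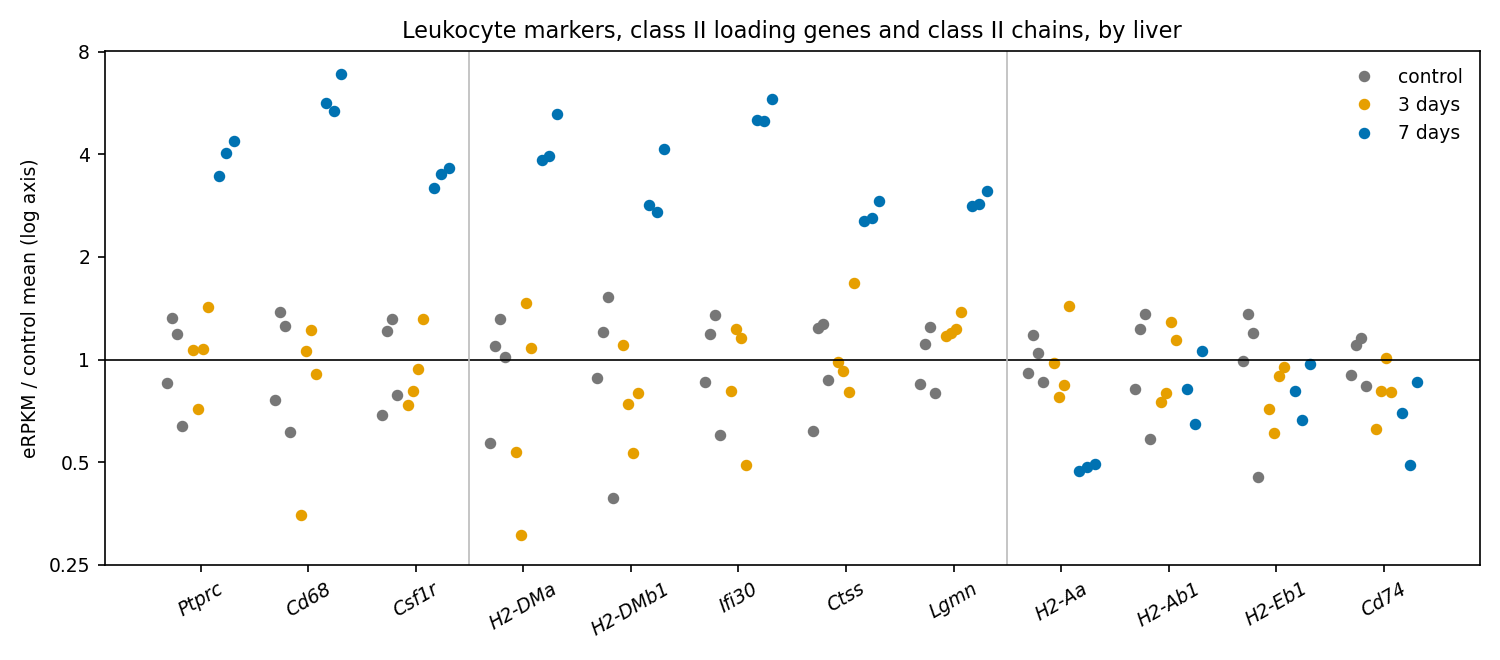
eRPKM divided by the control mean of the same gene (log axis) for 3 leukocyte and macrophage markers, 5 class II loading genes and proteases, and 4 class II chains; each point is 1 liver. The 7-day livers stand above all others in the first 2 blocks, whereas in the third they overlap the controls for H2-Ab1, H2-Eb1 and Cd74 and lie below them for H2-Aa.

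Among the class I genes, H2-K1 and B2m were lower at 7 days without passing the call. H2-K1, a heavy chain that carries the peptide, measured 164, 148, 237 and 341 eRPKM in controls, 236, 181, 160.1 and 216 at 3 days and 129, 126 and 129 at 7 days. B2m, the light chain shared by all class I molecules, measured 101, 84.1, 135 and 220.5 in controls, 127, 110.2, 101 and 92.6 at 3 days and 80.04, 78.7 and 80.5 at 7 days. For both genes all 7-day livers lay below all others. With H2-Aa, 3 of the 10 genes had every 7-day liver below every control, as had 13.3% of all tested genes, and none had every 7-day liver above, as had 36.7%. The log2 fold change was -0.72 ± 0.25 (SE) for H2-K1 (adjusted p = 0.0399, limma; exact permutation p = 0.0857) and -0.66 ± 0.26 for B2m (adjusted p = 0.0649; exact permutation p = 0.0857). After quantile normalization they were -0.13 and -0.21, and without control liver 4 they were -0.49 and -0.39.

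H2-D1, the second heavy chain, overlapped between controls and both induced groups. It measured 117, 122, 156 and 224 eRPKM in controls, 182, 167, 160.0 and 185 at 3 days and 127, 129.6 and 137 at 7 days. The 7-day estimate on the log2 scale was -0.19 (95% interval -0.62 to 0.25), and it changed sign to 0.36 after quantile normalization. Between the induced groups H2-D1 did not overlap, with every 7-day liver lower (-0.40, adjusted p = 0.136, limma; exact permutation p = 0.029). Together with H2-K1, B2m, H2-Aa and Psmb8, 5 of the 10 had every 7-day liver below every 3-day liver, where 13.8% of all tested genes had, and none had every 7-day liver above, where 31.3% had. Against control, no member had all 3-day livers on one side, where 3.38% of all tested genes had them all above and 2.25% all below.

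Among the 4 controls the 3 class I genes were higher in the shallower libraries (livers 3 and 4) than in the deeper ones (livers 1 and 2). Across groups H2-D1 was 117 eRPKM in control liver 1 (3895224 reads on genes). It was 160.0 to 185 in 3-day livers 2, 3 and 4 (3626710 to 3681416 reads). From control liver 4 to control liver 2 the reads on genes rose 4.39-fold, but H2-K1 reads rose 1.91-fold (1013 to 1931), H2-D1 reads 2.39-fold (541 to 1292) and B2m reads 1.68-fold (686 to 1151). Reads of the other 7 members rose between 5.70-fold (Psmb8) and 13.2-fold (H2-Eb1). Over tested genes with at least 10 reads in control liver 4 the same fold was 2.74 (median of 754 genes) at 300 or more reads per kilobase in the controls, where the 3 class I genes lie, and 6.29 (4044 genes) at 30 to 100 reads per kilobase, where H2-Aa, H2-Ab1, H2-Eb1 and Tap1 lie. In the same classes the median 7-day log2 fold change was -0.66 and 0.23. The control reads that set the classes also enter this change, so part of these medians can follow from the cut. In the control nearest in depth to the 7-day livers (liver 2), H2-K1 was 148 eRPKM against 126 to 129 at 7 days, B2m 84.1 against 78.7 to 80.5 and H2-D1 122 against 127 to 137. Without the 2 shallowest controls (livers 3 and 4) the 7-day log2 fold changes were -0.28 for H2-K1, -0.20 for B2m, 0.14 for H2-D1 and -1.07 for H2-Aa (adjusted p = 0.24, 0.369, 0.439 and 0.0116). With log2 depth as a covariate they were -0.14 for H2-K1, -0.025 for B2m, 0.23 for H2-D1 and -1.16 for H2-Aa (adjusted p = 0.464, 0.893, 0.210 and 0.00755). Of the controls only liver 2 was as deep as the 7-day libraries, so group and depth cannot be fully told apart. The deeper controls, livers 1 and 2, also had reads on 332 and 406 olfactory receptor genes, against 48 and 47 in livers 3 and 4. Among the controls, depth and these reads therefore cannot be told apart.

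**Figure D4:**
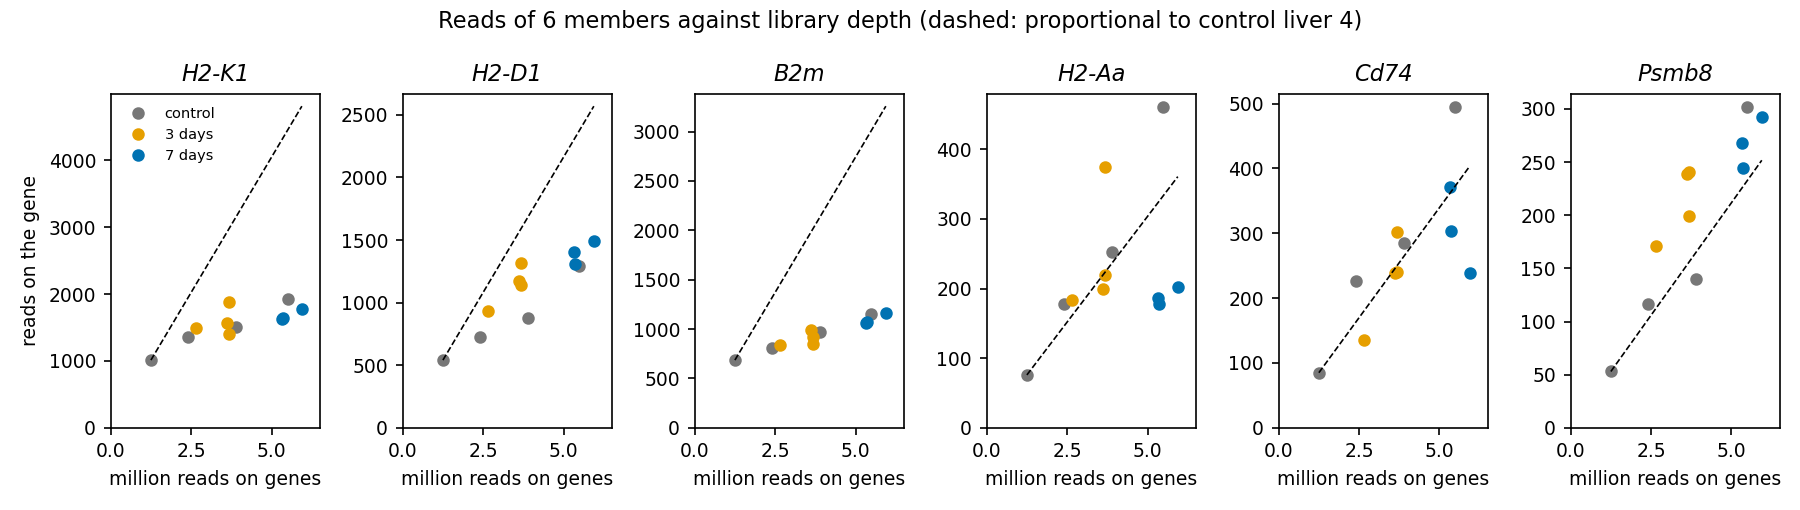
Reads on each of 6 genes (vertical axis) against the reads on genes of the whole library (horizontal axis) for the 11 livers; the dashed line is proportional to depth through control liver 4. H2-K1, H2-D1 and B2m fall far below the line in deep libraries, whereas the points of Cd74 and Psmb8 lie on both sides of it and H2-Aa is below it in all 7-day livers.

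The 180 bases upstream of the 2 heavy chain genes are shown because H2-K1 and H2-D1 share them closely. Capitals mark GGGGATTCC (an NF-kB site), TGACG and TGATTGG, on either strand:
H2-K1: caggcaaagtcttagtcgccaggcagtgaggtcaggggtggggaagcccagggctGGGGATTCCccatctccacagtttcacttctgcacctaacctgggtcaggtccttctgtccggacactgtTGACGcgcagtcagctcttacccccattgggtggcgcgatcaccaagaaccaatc
H2-D1: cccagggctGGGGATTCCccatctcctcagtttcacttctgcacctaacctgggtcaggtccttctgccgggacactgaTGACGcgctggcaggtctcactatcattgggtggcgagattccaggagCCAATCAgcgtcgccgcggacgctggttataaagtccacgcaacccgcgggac

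They matched chr17:34137279-34137458 on the minus strand and chr17:35399859-35400038 on the plus strand (mm9, RefSeq starts of GRCm38.p6), and of 134 bases that overlap in the best ungapped alignment 110 (82.1%) were identical. GGGGATTCC, held by 0.141% of the 27025 promoters, began 125 bases upstream of H2-K1 and 171 upstream of H2-D1, and TGACG 55 and 101 bases upstream. The alignment is offset by 46 bases, so both sites stand at the same aligned place and only the distance to the start used differs. The H2-K1 window ends in ccaatc, so whether it goes on to CCAATCA, as marked in H2-D1, lies beyond the cut. Since both genes belong to a family of near-identical copies, reads may be split among them by the authors' counting, and levels of single class I genes are uncertain to that extent.

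Psmb8, the immunoproteasome subunit, was highest at 3 days. It measured 28.5, 43.5, 38.2 and 33.6 eRPKM in controls, 50.9, 52.3, 42.9 and 51.9 at 3 days and 36.1, 38.95 and 40.03 at 7 days. Liver 3 at 3 days overlapped the controls and the other 3 stood above them. The 3-day log2 fold change of 0.47 ± 0.15 (SE) did not pass (adjusted p = 0.203, limma; exact permutation p = 0.0571), and at 7 days it was 0.11 (95% interval -0.23 to 0.45), or -0.16 with size factors. Psmb8 per Psmb5, the constitutive subunit it replaces, lay between 0.307 and 0.722 in controls, 0.512 and 0.766 at 3 days and 0.575 and 0.785 at 7 days, which overlapped.

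Tap1, a subunit of the peptide pump, lay between 6.47 and 10.6 eRPKM in controls, between 6.81 and 10.7 at 3 days and between 10.2 and 13.5 at 7 days. Its log2 fold change was 0.07 at 3 days and 0.38 at 7 days (95% interval -0.09 to 0.85, adjusted p = 0.184, limma), or -0.14 after quantile normalization. Tap1 shares exonic bases with the divergent gene Psmb9 on the other strand in GENCODE M1. Of 13 listed class I processing and loading genes none was called higher at 7 days and 1 was called lower, beside 18.0% and 5.77% of all genes: Erap1, the aminopeptidase that trims peptides, fell from 56.8 ± 2.95 to 33.6 ± 3.32 eRPKM (log2 fold change -0.75, adjusted p = 0.000699, limma). The list's median log2 fold change was 0.04. None of the 3 constitutive catalytic subunits Psmb5, Psmb6 and Psmb7 was called (median -0.42 at 7 days).

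Of 19 listed class I relatives, 17 were in the table and 15 were tested; at 7 days 2 rose, 2 fell and 11 were not called, beside 18.0% of all genes called higher and 5.77% lower, with a median log2 fold change of 0.43. H2-Q1, a gene of the Qa cluster, was at 5.06, 11.1, 12.8 and 5.16 eRPKM in controls, at 28.8, 25.3, 90.4 and 80.4 at 3 days and at 123, 98.1 and 113 at 7 days. Every induced liver stood above every control, at 3 days with a log2 fold change of 2.54 that did not pass (adjusted p = 0.0256, limma) and at 7 days with 3.74 (adjusted p = 5.3e-05). H2-M3, which presents formylated bacterial peptides, rose from 7.35 ± 2.10 to 15.6 ± 3.36 (log2 fold change 1.05, adjusted p = 0.00896), and the call was lost in 16 of 26 alternatives. Cd1d1, which presents lipids to NKT cells, fell from 146 ± 22.9 to 67.1 ± 7.06 (-1.11, adjusted p = 0.000183) and was called again at 7 against 3 days. H2-T23, which encodes the Qa-1 ligand of an inhibitory NK receptor, fell from 103 ± 15.4 to 52.5 ± 11.1 (-0.98, adjusted p = 0.00754), and the call was lost in 14 of 26 alternatives. Cd1d1 and H2-T23 had 464 and 329 reads per kilobase in the controls, in the class whose median was -0.66. That class was set by control reads, which also enter the change. Copies of these genes are near-identical, so the split of reads among H2-Q and H2-T members is uncertain.

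Of 18 regulators and interferon gamma pathway genes 17 were tested, and at 7 days 4 rose, 1 fell and 12 were not called, near the shares of all genes called higher (18.0%) and lower (5.77%), with a median log2 fold change of 0.13. Ifngr1, the ligand-binding chain of the interferon gamma receptor, rose from 20.4 ± 3.98 to 64.5 ± 2.13 eRPKM (log2 fold change 1.66, adjusted p = 2.16e-05, limma). Irf8, a factor of the monocyte and dendritic lineages, rose by 1.80 and Nfya, a subunit of NF-Y, by 1.44 on the log2 scale. Nfyb, another NF-Y subunit, fell by 0.88, and the fourth gene that rose was Ifngr2, named after its values were seen. Nlrc5, the known activator of class I genes, had a log2 fold change of -0.15 (adjusted p = 0.725). Irf1, which interferon induces, was at -0.14 (adjusted p = 0.573), and Ifng did not pass the filter.

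Of 7 listed costimulatory and checkpoint genes 6 were tested, and at 7 days, when 18.0% of all genes were called higher, 4 rose: Cd40 from 0.735 ± 0.358 to 5.39 ± 0.816 eRPKM (log2 fold change 2.29), Cd86 from 3.81 ± 1.78 to 17.0 ± 1.05, Icam1 from 7.25 ± 2.83 to 27.0 ± 1.73 and Cd80 from 1.67 ± 0.325 to 4.29 ± 1.31, the last losing its call in 19 of 26 alternatives. The list's median was 1.51. Macrophage and monocyte markers (6 of 8 and 4 of 5) rose in the same livers, and their part in these values was not tested. Cd274, the checkpoint ligand PD-L1, was not called (-0.22, adjusted p = 0.533, limma).

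**Figure D5:**
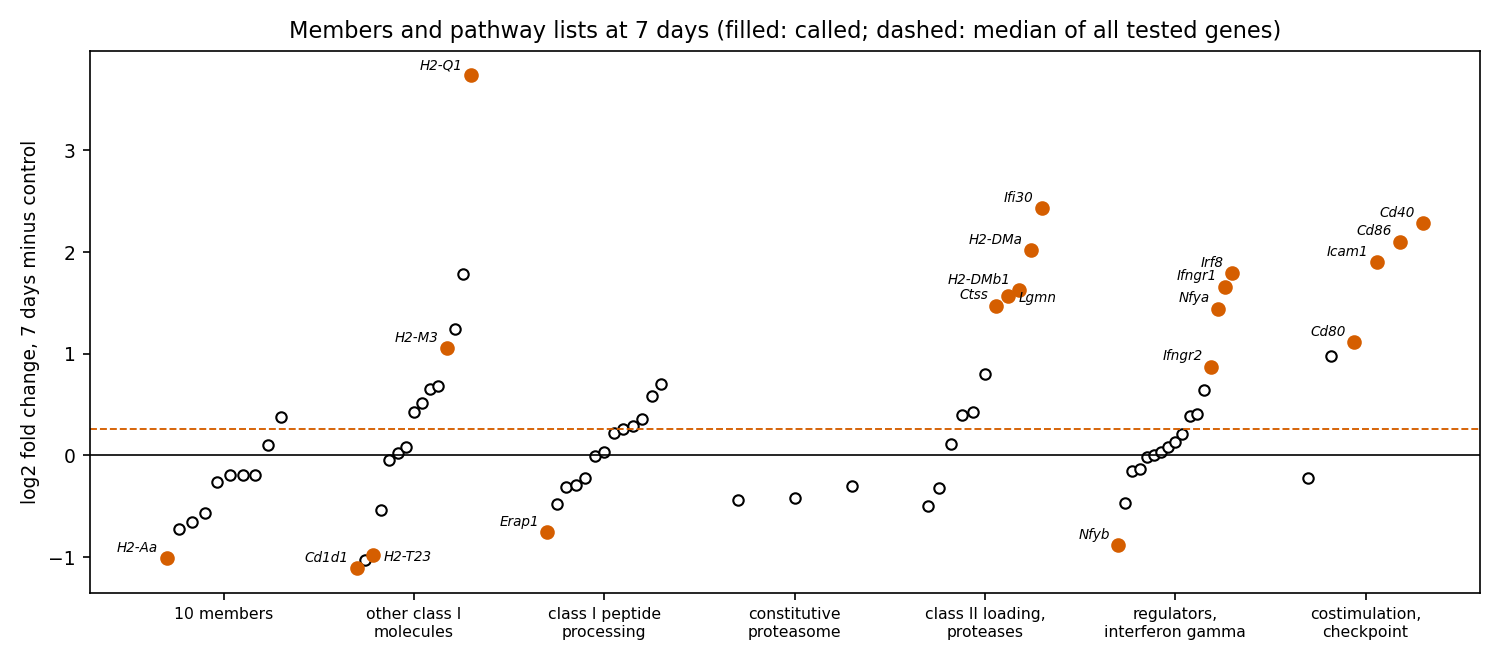
Log2 fold change at 7 days against control (vertical axis) for the 10 genes and 6 lists of related genes, each point 1 gene and filled where called; the dashed line is the median of all tested genes, 0.26. H2-Aa is the only filled point among the 10, while class II loading genes and costimulatory genes are filled above the line, up to H2-Q1 at 3.74 among the other class I molecules.

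The genes whose course over the 11 livers was closest to H2-K1, by root mean square distance of centred log2 values among 12576 genes with a mean of at least 1 eRPKM, were Apoa5, Gstz1, Azgp1, Rpl7 and Prdx1 (distances 0.0816 to 0.0859, against a spread of 0.435 for H2-K1 itself). All 5 had between 690.2 and 987 reads per kilobase in the median liver and a 1.68-fold to 1.97-fold rise of reads from control liver 4 to control liver 2. The distance took in control livers 2 and 4, so a rise like that of H2-K1 follows from the choice of genes and is not separate evidence. B2m ranked 108 and H2-D1 301 by the same measure. Closest to Cd74 were Rapgef4, Acat2, Acly, Papss2 and Rbpms2 (0.164 to 0.183, against a spread of 0.340); H2-Ab1 ranked 142, H2-Eb1 856 and H2-Aa 2905.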

How the data were processed

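Total RNA from homogenised livers was sequenced after TruSeq RNA v2 library preparation. The authors masked low-quality bases and aligned read pairs to mm9 with TopHat2 2.0.8, without strand; the submitters' processing notes also name SAMtools, featureCounts 1.4.5-p1 and DESeq2. The gene annotation and the handling of duplicate reads are not given in the sources used here. The deposited values are eRPKM (an RPKM on exons), 1 column per liver; the deposited DESeq2 columns (mean count, log2 fold change and adjusted p-value of 7 days against control) hold the study's own comparison and were not used.

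Groups came from the labels. All 177553 values above 0 (100%) gave whole reads within 0.1 read, which gave the depths. Log2(eRPKM + 0.5) was fitted with limma 3.58.1 (R 4.3.3), trended eBayes, all 11 livers and no covariate, keeping genes that reached 0.5 eRPKM in 3 or more livers. Genes were called at a p below 0.01 after Benjamini-Hochberg adjustment together with a log2 change larger than 0.5 in either direction. Single genes were also compared by exact two-sided permutation (smallest p 0.029). Labels do not say how replicates relate beyond their numbers, so p-values measure the spread between these livers.

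The members and lists were chosen with earlier results of these data known. Named were the 10 members, in each list at most the 4 called genes with the largest change at 7 days, and the 5 genes most like H2-K1 and Cd74; Ctss, Ifngr2 and genes given as not called were named after their values were seen. Adgre1, H2-L and H2-Q4 had no matching symbol and Tf was read as Trf. The alternatives were other pseudocounts, filters, scalings, covariates and models, a replicate block, and leaving out livers. Positions are from GENCODE M1 (mm9). The values of 1 listed regulator are not reported here.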

Additional observations from a re-analysis of the deposited data

Results flagged for a closer look

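H2-Aa differed between the induced groups: its log2 fold change against control was -0.02 at 3 days and -1.01 at 7 days, and the difference between them, tested directly as 7 against 3 days, was -0.99 (adjusted p = 0.00287, limma), with all 3 livers at 7 days below all 4 at 3 days.

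Psmb8 at 3 days had 1 liver apart from the others: liver 3, at 42.9 eRPKM beside 50.9 to 52.3, stood at a gap of 0.856 of the group's range, above Dixon's 95% limit for 4 samples. It was 1 of 20 sets of 4 livers examined, and chance flags about 1 in 20. Without it the 3-day log2 fold change of Psmb8 was 0.53 (adjusted p = 0.114, limma).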

How the results depend on the processing

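Of 780 recomputed log2 fold changes of the 10 genes (26 alternatives in 3 comparisons), 724 kept their direction and their side of the threshold, 8 lost the call, 2 gained it and 46 changed sign; the cause was not tested. The number of genes called at 7 days against control, 1 in the fit reported, was 2 with size factors, 2 when only an adjusted p under 0.05 was asked, 0 to 1 when single livers were left out, 0 without the libraries rich in olfactory receptor reads (control livers 1 and 2 and 7-day liver 2) and 0 without control livers 3 and 4; the last 2 alternatives were chosen after seeing the data. At 7 against 3 days it was 1, 0 to 1 with single livers left out, 0 without the libraries rich in olfactory receptor reads and 2 without control livers 3 and 4 (H2-Aa and H2-K1). At 3 days no alternative called any of the 10. Without a sign change, H2-K1 and B2m at 7 days against control shrank to -0.14 and -0.025 with depth as a covariate and to -0.13 and -0.21 after quantile normalization. With the label suffix MF as a covariate, Cd74 moved from -0.30 to -0.07 at 3 days and from -0.57 to -0.41 at 7 days against control. Ciita moved from -0.45 to -0.81 and from -0.26 to -0.50 in the same comparisons.

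Replicate numbers were not shown to pair the livers: same-numbered livers deviated together with r from -0.222 to 0.269, against -0.275 to 0.238 for different numbers. The 2 ranges overlap, and these values cannot exclude a pairing. With the replicate block the count at 7 against 3 days was 0 (H2-Aa at -0.93, adjusted p = 0.0134), H2-Eb1 there was -0.0749, and no other call of the 10 changed; over all genes it called 2032 higher and 688 lower at 7 days against control.

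Sign changes at 3 days were, after quantile normalization, H2-K1 0.0145 and H2-Ab1 -0.0792; with depth as a covariate, H2-K1 0.0497, H2-Ab1 -0.0678 and Tap1 -0.0149; with limma-voom, H2-Ab1 -0.0349; without control livers 3 and 4, H2-K1 0.33, B2m 0.22, H2-Ab1 -0.0530 and Tap1 -0.0791; and without the olfactory-rich libraries, H2-D1 -0.11, H2-Aa 0.0476 and H2-Eb1 0.0712. With single livers left out the 3-day ranges were -0.27 to 0.13 for H2-K1, -0.43 to 0.0330 for B2m, -0.20 to 0.0892 for H2-Aa, -0.20 to 0.20 for H2-Ab1 and -0.0532 to 0.19 for Tap1. At 7 days against control they were, for H2-D1, 0.36 (quantile), 0.23 (depth) and 0.14 (without control livers 3 and 4), with a range of -0.30 to 0.0073 over single livers left out; for Tap1 -0.14 (quantile); for Psmb8 -0.16 (size factors); and without the olfactory-rich libraries 0.0578 for H2-Ab1 and 0.24 for H2-Eb1. At 7 against 3 days they were, after quantile normalization, 0.0910 for H2-D1, -0.49 for H2-Eb1, -0.32 for Ciita and -0.16 for Tap1; with depth, 0.0441 for B2m and -0.38 for H2-Eb1; for H2-Eb1 also -0.19 with size factors and -0.20 with Xist; and -0.14 for Ciita without the olfactory-rich libraries. With single livers left out these ranged from -0.0857 to 0.17 for H2-Eb1 and from -0.14 to 0.41 for Ciita.

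Over all genes, calls at 7 days against control fell to 1099 higher and 577 lower with depth as a covariate, to 941 and 394 without the olfactory-rich libraries, to 1406 and 579 without control livers 3 and 4, and ranged from 1513 to 2768 higher and from 465 to 914 lower with single livers left out. At 7 against 3 days they were 1997 and 756 as reported, 1091 and 588 with depth, 788 and 319 without the olfactory-rich libraries, and 983 to 2618 higher with single livers left out. At 3 days they ranged from 0 to 53 higher with single livers left out, the highest without 3-day liver 1. Depth limited Ciita most, at 11 to 102 reads per library.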
